A study of Mus musculus with 2 samples.

Results

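Ucp1, the mouse gene for uncoupling protein 1, was examined for nearby binding of the nuclear receptor PPARγ that was assigned to brown or to white fat alone. Regions were taken from both deposited lists when their midpoint fell in chr8:85714000-85923000, the gene with about 100 kb on each side. This window of 209 kb held 6 of the 8268 deposited regions, 5 of the 3557 regions listed as specific to brown adipose tissue (BAT) and 1 of the 4711 listed as specific to epididymal white adipose tissue (eWAT). DNA bound by PPARγ was isolated with an antibody and sequenced (ChIP-seq) from fat of male mice of the 129SV strain, 8 to 10 weeks old, kept on chow in a light-dark cycle and killed at zeitgeber time 10 h. Both groups share strain, sex, age and treatment and differ in the depot. Each tissue was represented by 1 library made from pooled ChIP DNA of 4 mice, so no value below has a replicate check and no difference between the tissues was tested. Intervals on scores within a list cover counting error only.

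UCP1 sits in the inner mitochondrial membrane of brown fat cells, where it lets protons return to the matrix without making ATP, so that the energy is released as heat. White fat of unchallenged mice has little of it. PPARγ binds DNA together with RXR, is required for the formation of brown and white fat cells alike, and acts on Ucp1 through a well-studied enhancer that lies a few kilobases before the gene and also takes input from thyroid hormone, retinoic acid and adrenergic signals. EBF2, the transcription factor named in the series title, marks brown fat precursors and acts with PPARγ on brown fat genes.

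Positions are read as mm9. The submitters' notes name mm8 and mm9, and the lists do not say which they use, so all statements about Ucp1 hold only if the lists are in mm9. The gene lies on the plus strand with its start near 85814200, a position known to about 0.1 kb. An error in it would shift every distance below by the same amount and leave the spacing between regions as it is. The lists hold only regions assigned to 1 tissue. Sites bound in both tissues are not analysed here, so a stretch without a region is not a stretch without PPARγ.

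All 5 BAT-specific regions lay before the gene start, and 0 lay in the gene or after it. They occupied 15.4 kb from end to end. Each is 200 bp wide, so together they cover 1000 bp of that stretch. The only eWAT-specific region lay far on the other side of the gene. The score is the authors' value per region, has no stated unit and is compared only within a list. BAT scores take even steps of 0.0687 and eWAT scores even steps of 0.348, as a tag count times a fixed factor would. Numbers of steps and their exact 95% Poisson intervals are given on the assumption that 1 step is 1 sequenced tag, and they cover counting error only.

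The region nearest to the gene was chr8:85811651-85811850, with its midpoint 2.45 kb upstream of the start. It scored 9.55, or 139 steps (interval 117 to 164), which placed it 98th of 3557 BAT regions and 5th of the 209 on chromosome 8. Its score was 2.68 times the list's median of 3.57. It stands at the distance at which the classical Ucp1 enhancer is usually placed. Whether it covers that enhancer was not tested, since no sequence of this build was used.

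The next region, chr8:85809465-85809664, lay 4.64 kb upstream and 2.19 kb from the first. It had the highest score of the locus, 10.16, or 148 steps (interval 125 to 174). It ranked 70th in the BAT list and 2nd among that list's regions on chromosome 8, at 2.85 times the median. Sites bound in both tissues do not enter these ranks. The pair of regions closest to the gene differed by 9 steps, a ratio of 1.06 (exact 95% binomial interval 0.839 to 1.35), so their order is not resolved by counting error. Only 2.11% of BAT regions scored at least as high as the upper of the pair and 2.98% as high as the lower. In the plot of scores by distance, both stand above the other regions of the window.

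**Figure D1:**
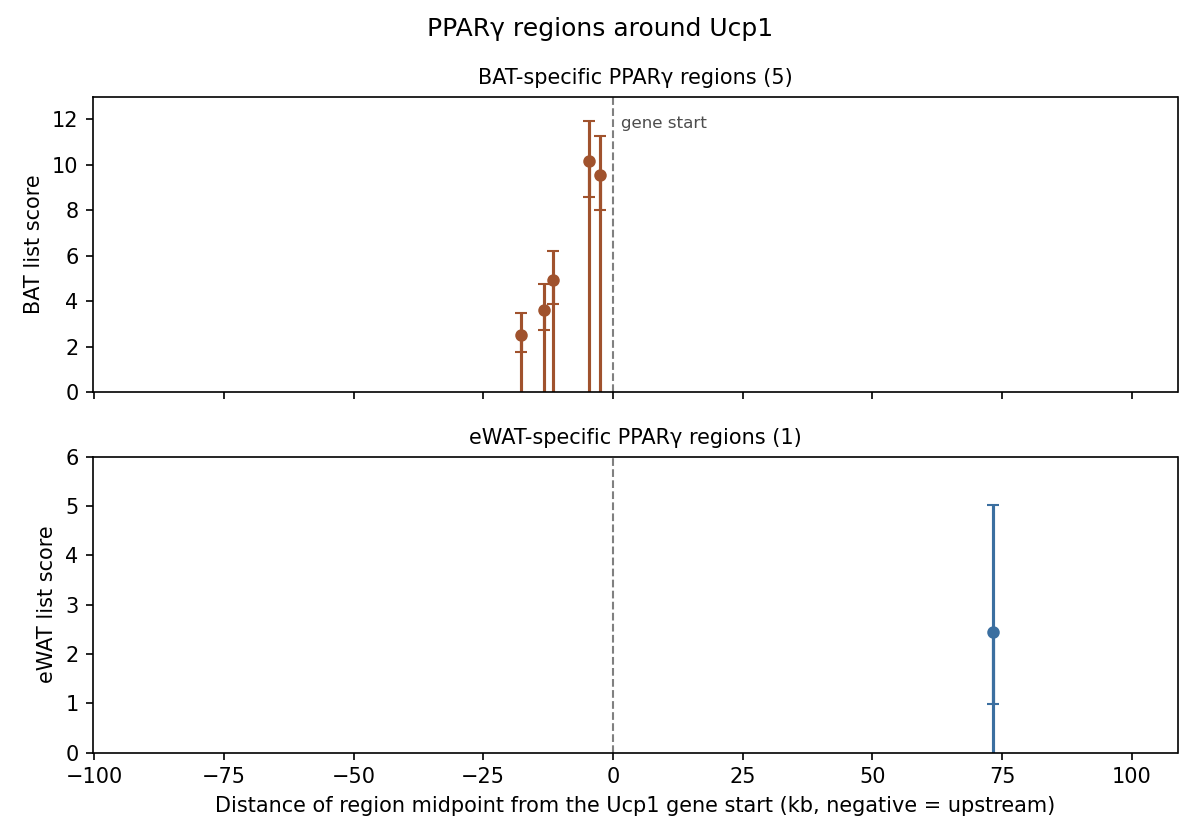
Score of each PPARγ region of the Ucp1 window (vertical axis, in the units of its own list) against the distance of its midpoint from the gene start in kb, with the BAT list above and the eWAT list below. Bars through the points are exact 95% Poisson intervals under the assumption of 1 tag per score step. The 5 BAT regions lie between 17.65 and 2.45 kb upstream with scores of 2.54 to 10.16, and the eWAT region lies 73.17 kb downstream.

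The other 3 BAT regions formed an outer group beyond a gap of 6.95 kb, the widest within the cluster. The first of them, chr8:85802516-85802715, lay 11.59 kb upstream with a score of 4.94, or 72 steps (interval 56.3 to 90.7), and ranked 844th. Its score was below that of the 2.45 kb region, which was 1.93 times as high (exact 95% binomial interval 1.44 to 2.60). This comparison was chosen with the scores in view, so it describes the drop and is no test of it.

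Next outward was chr8:85800877-85801076 at 13.22 kb upstream, 1.64 kb from its neighbour. Its score of 3.64, or 53 steps (interval 39.7 to 69.3), was 1.02 times the list's median, so it is an ordinary member of the BAT list (rank 1635). The outermost, chr8:85796451-85796650, lay 17.65 kb upstream and 4.43 kb from the next. It scored 2.54, or 37 steps (interval 26.1 to 51.0), 0.711 times the median, and 81.1% of BAT regions scored as high or higher. The intervals of neighbouring members of this outer group overlap, so only the ends of the order can be told apart by counting error.

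Scores thus differed 4.00-fold within a single locus. By their point values they fell with distance from the gene, apart from the inner pair. Counting error resolves the order neither within the inner pair nor between neighbours of the outer group. This is a description of 5 regions that share a locus and a library. The inner pair held 63.9% of the summed score of 30.83 (19.71), and 4 of the 5 regions lay above the list's median. In the plot of score ranks, the 5 regions run from the top few percent of the BAT list to its lower part.

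**Figure D2:**
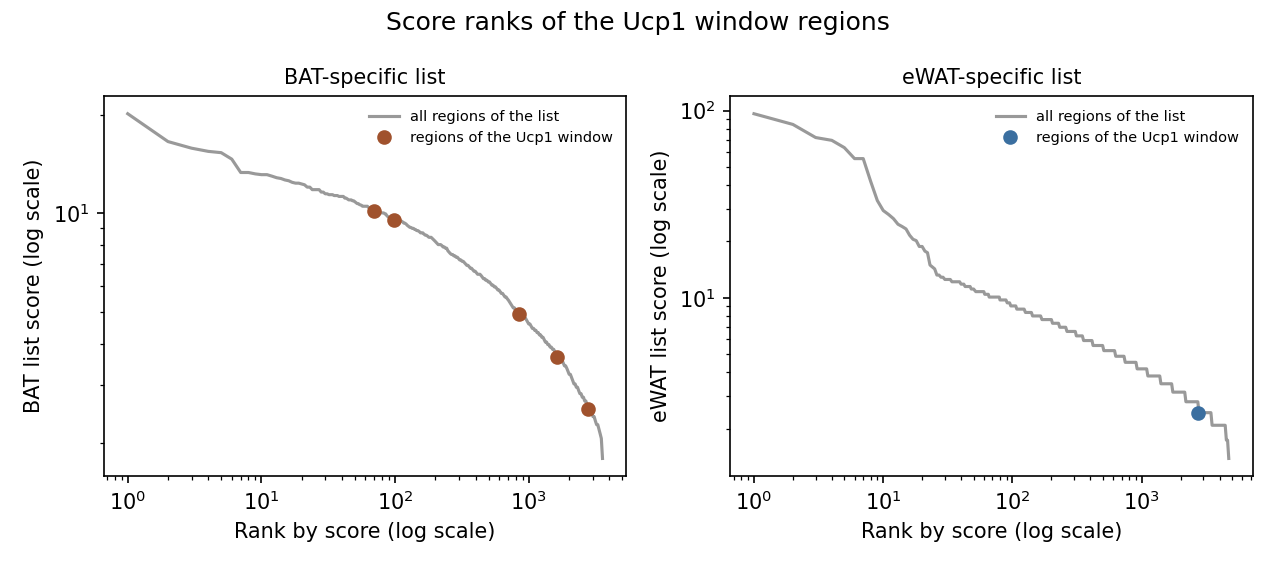
Score against rank within the BAT list (left) and the eWAT list (right), both axes logarithmic. Grey lines show all regions of the list and coloured points the regions of the Ucp1 window. The BAT regions sit at ranks 70, 98, 844, 1635 and 2766 of 3557, and the eWAT region at rank 2721 of 4711.

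The eWAT-specific region, chr8:85887270-85887469, had its midpoint 73.17 kb downstream of the Ucp1 start and 75.6 kb from the nearest BAT region. It scored 2.44, against an eWAT median of 2.79, and shared rank 2721 of 4711 with other regions of the same score (756 in all). Its 7 steps have an interval of 2.81 to 14.4, so it rests on few tags if steps are tags. That holds for the eWAT list as a whole, whose median is 8 steps, against 52 in the BAT list. Its nearest eWAT neighbour was 304 kb away, against a median of 71.6 kb over the eWAT list. The next eWAT regions lay 231 kb upstream (score 2.79) and 479 kb downstream (score 2.09) of the gene start. No eWAT-specific region lay among the BAT regions or between them and the gene. Such an absence is common, since only 24.6% of windows of 209 kb held any eWAT region and this stretch is far shorter.

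The window has fixed edges, and no region of either list lay close to one. The eWAT region ended 35.5 kb inside the downstream edge. Outside the window, the first BAT region upstream (chr8:84926939-84927138, score 3.85) lay 887 kb from the gene start and the first downstream (chr8:86104817-86105016, score 3.64) 291 kb. The cluster was thus separated from other BAT-specific regions by 870 kb on one side and 293 kb on the other. Gaps of this width are common in the BAT list. The median gap between successive regions was 195 kb, 21.0% of the 3537 gaps were at least as wide as the upstream one and 41.7% at least as wide as the downstream one.

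By order of genes in the RefSeq annotation of GRCm38, used for names alone, Ucp1 is preceded by the pseudogene Gm17999 and the non-coding RNA gene Gm42027 and followed by Elmod2, which encodes a regulator of small GTPases, and the non-coding RNA gene Gm32327. The nearest protein-coding gene on the upstream side is Tbc1d9, a gene outside the naming rule, named because the BAT regions lie on that side. The positions of these genes in mm9 were not used, so the distance from the BAT regions to them is not given.

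How often a window of this width holds 5 regions of one list was read from the whole genome. Of 12608 windows of 209 kb laid end to end, 48 held at least 5 BAT-specific regions, which is 0.381% (exact 95% interval 0.281 to 0.504%). The windows are all those of 1 library and are not independent draws. Intervals on shares of windows thus measure no spread between replicates. The Ucp1 start fell in a window that held these same 5 BAT regions and the 1 eWAT region. Windows with at least 1 BAT region made up 18.0%, the mean was 0.282 BAT regions per window and the fullest window held 10. The Ucp1 count was matched or exceeded in 47 other windows. With only regions at or above the list's median score, of which the Ucp1 window holds 4, the share of windows with at least 4 was 0.206%. This count of 4 includes the region with score 3.64 (interval 2.73 to 4.76), barely above the median of 3.57. Seen from the regions themselves, such counts are less rare: 8.43% of BAT regions had at least 5, themselves included, in a window of this width centred on them. The summed BAT score of 30.83 was reached or passed in windows centred on 2.67% of BAT regions, where the median was 7.21 and the highest 54.66.

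A single eWAT-specific region in the window is common. At least 1 was found in 24.6% of all windows, with a mean of 0.374 per window. At least 5 eWAT regions were found in 0.301% of windows. Among the 48 windows with at least 5 BAT regions, 19 (39.6%, exact 95% interval 25.8 to 54.7%) also held at least 1 eWAT region. The plot of regions per window shows where both counts fall.

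**Figure D3:**
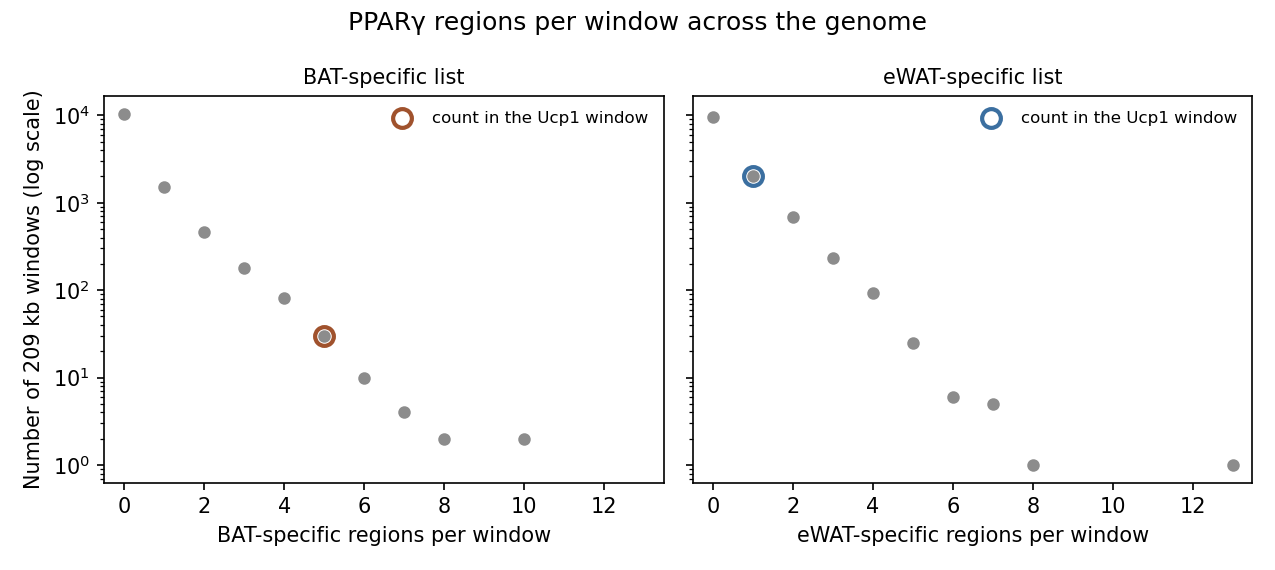
Number of 209 kb windows (vertical axis, logarithmic) by the number of BAT-specific (left) or eWAT-specific (right) regions that they hold. Grey points are all 12608 windows and rings mark the counts of the Ucp1 window, 5 for BAT (30 windows hold exactly that many) and 1 for eWAT (2045 windows).

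The Ucp1 regions lie close together for the BAT list. Their 5 midpoints span 15.2 kb. Of the 3477 runs of 5 successive BAT-specific regions on a chromosome, overlapping runs included, 1 (0.0288%) was that tight, and it was the Ucp1 run. The next spanned 19.9 and 21.9 kb, and the median was 1739 kb. All 5 regions had another BAT region within 5 kb, a spacing found for 14.7% of the BAT list. This measure was chosen after the spacing of the cluster was known, so it describes the locus and is no test of it.

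**Figure D4:**
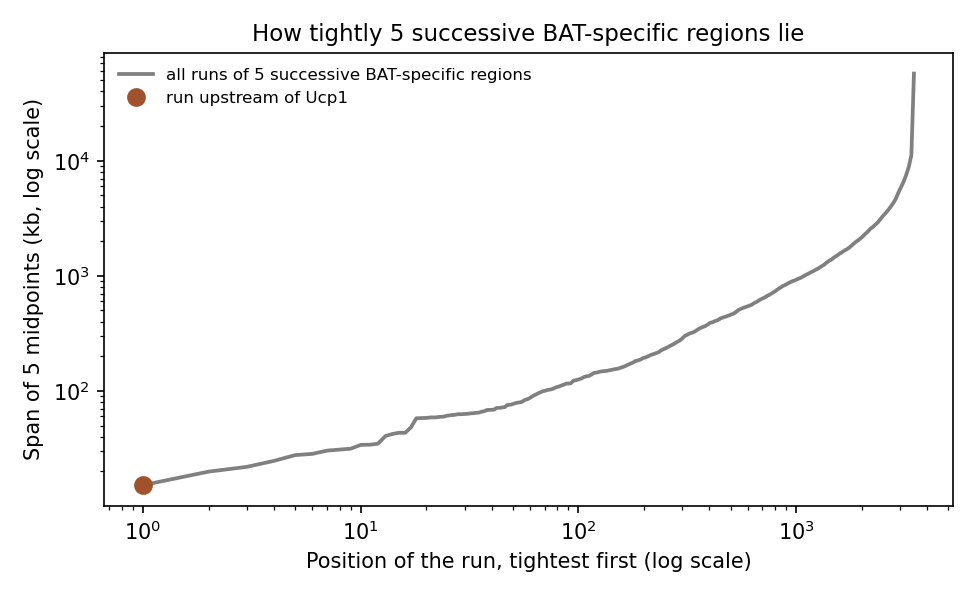
Distance between the first and last midpoint of every run of 5 successive BAT-specific regions (vertical axis, kb, logarithmic), ordered from the tightest run (horizontal axis, logarithmic). The coloured point is the run upstream of Ucp1, at 15.2 kb the tightest of 3477, against a median of 1739 kb.

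Pairs as close and as high in score as the inner pair were also counted. In the BAT list, 275 successive pairs of regions lay within 5 kb of each other. In 1 of them (0.364%), the Ucp1 pair, both regions scored at least 9.55. That limit is the lower score of the pair itself and was set with it in view.

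The start of the gene itself carried no tissue-specific region. The BAT region closest to it ended 2.35 kb before the start. The sequence around the start is shown because it is the point from which all distances are counted and the deposited regions leave it free. It comes from RefSeq, from a reference mouse strain and not from 129SV, in build GRCm38.p6 (chr8:83290098-83290397, plus strand), whose numbering cannot be set against the mm9 positions above. It holds 250 bases before and 50 bases from the annotated start. Capitals mark matches to the motifs described below.

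Ucp1 promoter: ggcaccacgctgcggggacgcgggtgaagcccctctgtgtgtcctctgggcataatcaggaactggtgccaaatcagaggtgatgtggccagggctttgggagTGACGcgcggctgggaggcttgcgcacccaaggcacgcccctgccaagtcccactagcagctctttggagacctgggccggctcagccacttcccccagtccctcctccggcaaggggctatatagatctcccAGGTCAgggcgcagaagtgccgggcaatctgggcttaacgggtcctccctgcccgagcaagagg

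Motifs were searched on both strands. AGGTCA, the half-site that PPARγ, RXR and related nuclear receptors recognise, was present 1 time, on the plus strand with its first base 14 bases before the start. It occurs in 16.3% of 32851 RefSeq promoters of the same length. TGACG, part of the site of the cAMP-responsive factor CREB, was present 1 time, with its first base 147 bases before the start, and occurs in 20.8%. The PPARγ-RXR element, 2 copies of AGGTCA in tandem with 1 base between them, had 0 exact matches (0.0396% of promoters have one). The EBF palindrome, TCCC and GGGA with 2 bases between them, also had 0 (0.904%). Elements differ from these exact letters, so the zeros say only that these letters are not in this window. The promoter has 64.7% G and C, against a median of 52.7% over all promoters, and 18.9% of promoters have at least as much. The sequences of the 6 bound regions were not examined, because no genome of their build was used here.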

How the data were processed

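ChIP-seq for PPARγ was done by the authors on BAT and eWAT with DNA of 4 mice pooled per library, per the labels' protocols. Bowtie and HOMER are named in the submitters' processing notes, without roles. The score deposited by the authors for each 200 bp region has no stated unit. The sources used here do not state the peak threshold, how input DNA was used or what made a region tissue-specific, and the depth of each library is unknown.

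Samples were grouped by labelled tissue. From the lists, the distance of each midpoint to the gene start, its rank (ties share the best rank) and the score step (least squares, 99.9% of BAT and 99.8% of eWAT scores whole multiples within 0.005) were computed with Python 3.11.15, pandas 2.3.3 and scipy 1.17.1. Windows were tiled from base 1 of each chromosome to the last region of either list. The score step, the window counts and the nearest distance were tested on simulated or made-up values, and the other computations were not. Described regions are all those in the window and the nearest outside it on each side. Neighbouring genes are the 2 on each side by order. The members, lists and measures were chosen with earlier results of these data known. Counts near other brown fat genes were not made, because no annotation of the lists' build was used.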

Additional observations from a re-analysis of the deposited data

How the results depend on the processing

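The 5 BAT regions were 5 with windows of 50 or 200 kb on each side, with overlap in place of midpoints and with regions within 1 kb merged, and 4 when only regions at or above the list's median score were kept. That count of 4 includes the region at 13.22 kb, whose score interval spans the median. The eWAT count of 1 became 0 with 50 kb on each side and 0 at or above the list's median score. All 5 BAT regions had a BAT neighbour at limits of 5 and 50 kb and at the planned limit between them. In the whole BAT list, 14.7% of regions had such a neighbour at 5 kb and 23.9% (850 regions) at the planned limit. The share at 50 kb is not given, but the list's median distance to the nearest BAT region was 61.4 kb. The wider limits thus set the Ucp1 regions apart less than 5 kb does. The share of windows with as many BAT regions (0.381%) was 0.389% with shifted windows, 0.478% on chromosome 8, 8.43% for windows centred on BAT regions, where each window holds a region by construction, and 0.206% for windows with at least 4 regions at or above the median score. From the nearest edge, the distances were -17.55, -13.12, -11.48, -4.54, -2.35 and 73.07 kb. Counting tied scores by their mean rank put the outermost BAT region at 79.4% of its list in place of 81.1%, and the eWAT region at 65.8% in place of 73.8%. Within chromosome 8, the share of regions scoring at least as high was 84.2%, 53.1%, 31.1% and 0.957% for the BAT regions at 17.65, 13.22, 11.59 and 4.64 kb, and 70.0% for the eWAT region. Reading the positions as mm8 was not run. With a lone library for either tissue, none could be left out. No paired analysis was possible because neither tissue has a second library.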

Other observations

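Each deposited region has a name that joins its chromosome and a whole number, without explanation. The 5 BAT regions before Ucp1 carry the numbers 812, 487, 298, 44 and 62, from the outermost to the one nearest the gene, on a chromosome where the numbers run to 1151 and 209 BAT regions were deposited. Of the numbers on chromosome 8 below that of the region at 4.64 kb, 1 was deposited as BAT-specific, and of those below that of the region at 2.45 kb, 5 were. The eWAT region carries the number 984, with numbers up to 1514 and 217 deposited eWAT regions on chromosome 8. Among the 5 BAT regions, lower numbers went with higher scores. This is no trait of the locus, since their places by number and by score on chromosome 8 nearly match. From the outermost inward, 169, 112, 59, 1 and 5 deposited BAT regions had lower numbers. The score ranks on chromosome 8 were 168, 107, 62, 2 and 5. What the missing numbers stand for was not tested.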
